A study of Mus musculus with 8 samples.

Results

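The genes described are 10 chaperones and folding enzymes of the endoplasmic reticulum (ER): Hspa5, Hsp90b1, Calr, Canx, Pdia3, Pdia4, Pdia6, P4hb, Serpinh1 and Sdf2l1. They were looked up by symbol in the deposited table of cluster markers, which holds 3903 gene symbols. An entry was found for 9 of the 10, and Sdf2l1 (chromosome 16, 17130138 to 17132383, minus strand) had none. The 9 genes had 47 entries in all, spread over 11 of the 12 clusters, with cluster 10 as the one without any. A missing entry says only that the gene did not pass the authors' minimums in that cluster, and it is not a value of 0.

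Preadipocytes, the precursors of fat cells, were taken from the inguinal white fat of C57BL/6 mice and grown on plates coated with collagen. The wild-type (WT) mice were set beside double knockout (DKO) mice of the genotype Hmgn1-/- and Hmgn2-/-, which lack a pair of nuclear proteins that bind nucleosomes. Single-cell RNA was collected at day 0 and at day 6 of induced browning, by which white preadipocytes become beige, heat-producing adipocytes, driven by insulin, dexamethasone, IBMX, T3 and rosiglitazone, with 2 samples per genotype and day and 8 in all. The cells of all 8 samples were pooled in the table, so DKO and WT or the days could not be compared, the knockout could not be checked per sample, and no value has a replicate or a test.

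Proteins bound for secretion enter the ER as unfolded chains, and ER chaperones hold, fold and link these chains before they leave for the Golgi. Hspa5 (BiP) and Hsp90b1 (Grp94) are the Hsp70 and Hsp90 proteins of the ER, Calr and Canx bind chains that carry sugars, and the protein disulfide isomerases form and rearrange disulfide bonds. Serpinh1 (Hsp47) is a chaperone for collagen, a main product of fat cell precursors. When unfolded chains build up, a signalling system named the unfolded protein response turns many of these genes on together.

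One DNA motif through which that response acts is the ER stress response element, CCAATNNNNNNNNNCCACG, in which N is any base. It was searched on both strands of the RefSeq promoter windows (GRCm38.p6), which run from 250 bases before each gene's start to 50 after it and were present for 10 of the 10 genes. The motif was found in 5 of these 10 windows, against 39 of 32851 windows (0.119%) of all genes. It was picked because it is known for the response that acts on such genes, so this count is a description and not a test. The matches are shown because they are the sequence that members of the set share. Each is written in the direction in which the motif reads, with 5 bases on either side and with the fixed letters of the motif in capitals:
Hspa5: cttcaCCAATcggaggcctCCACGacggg
Hsp90b1, far match: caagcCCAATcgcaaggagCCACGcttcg
Hsp90b1, near match: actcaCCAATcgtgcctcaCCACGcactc
Calr: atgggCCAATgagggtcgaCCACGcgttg
Canx: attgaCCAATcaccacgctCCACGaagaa
Pdia6: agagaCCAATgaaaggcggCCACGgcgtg
Distances are counted from the RefSeq start of each window, which is not always the gene end that GENCODE gives and that is printed with each gene. In Hspa5 (chr2:34772020-34772048) the motif lay 65 to 47 bases before the RefSeq start on the gene's own strand, and the match is inside the longer GENCODE gene. The motif lay 98 to 80 bases before the start of Pdia6 (chr12:17266486-17266514) and 145 to 127 before that of Canx (chr11:50325795-50325823), in both on the strand of the gene. In Calr it lay 162 to 144 bases before the start on the opposite strand (chr8:84847070-84847098). Hsp90b1 held a pair of matches, the far one 212 to 194 bases before the start on its own strand (chr10:86705633-86705661) and the near one 107 to 89 before it on the opposite strand (chr10:86705528-86705556). A match describes the letters of a window and is not shown here to be a used site, and the windows of Pdia3, Pdia4, P4hb, Serpinh1 and Sdf2l1 did not hold these letters. A heat shock element, GAANNTTCNNGAA, was in 0 of the 10 windows and in 198 (0.603%) of all windows.

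The measure used throughout is detection, the percent of cells in which at least 1 transcript of the gene was counted, given by the authors for the cells inside a cluster and for all other cells. Detection depends on the RNA and the reads per cell as well as on the gene, and the number of cells and their depth are unknown from the table. The clusters themselves were drawn from the expression of these same cells, so a cluster set against the rest is a description. Solved over all cells, 9 chaperones were widely detected: Hspa5 in 92.5% of all cells, Hsp90b1 in 91.9%, Calr in 91.6%, Serpinh1 in 91.5%, P4hb in 90.2%, Pdia3 in 88.1%, Pdia6 in 85.7%, Canx in 84.9% and Pdia4 in 68.1%. The value of a gene differed by at most 0.0919 percentage points with the cluster from which it was solved, so the ranges of neighbours in this order did not overlap. That range comes from the arithmetic and holds no spread over samples, and the order is one of detection, not of RNA per cell.

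**Figure D1:**
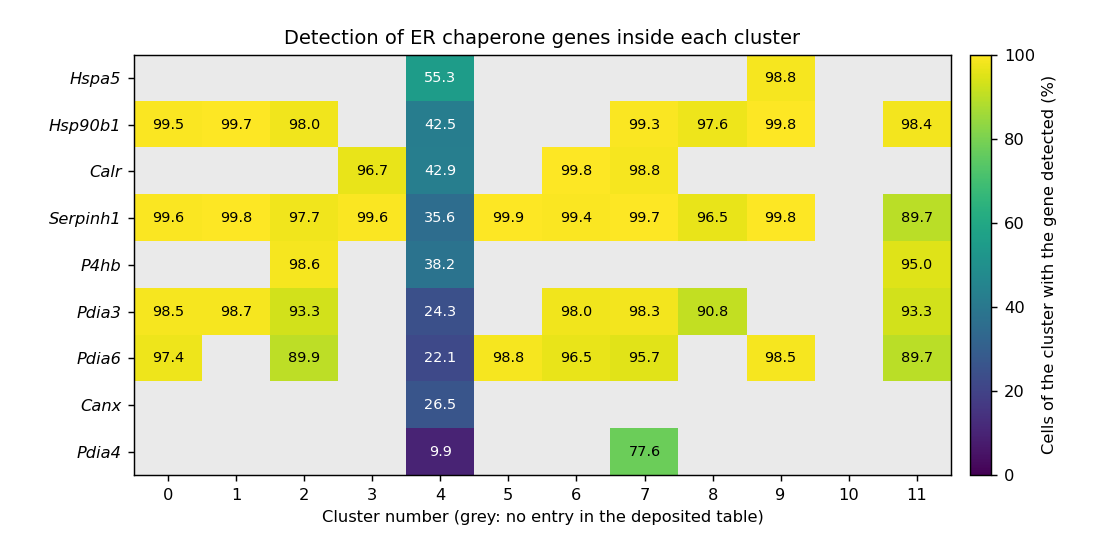
Percent of cells inside each of the 12 clusters (horizontal axis) in which each of 9 ER chaperone genes (vertical axis) was detected, as colour and number, with grey where the table has no entry. Cluster 4 holds an entry for all 9 genes at 9.9% to 55.3%, while 37 of the 38 other entries lie between 89.7% and 99.9% and Pdia4 in cluster 7 is at 77.6%.

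A difference of at least 10 percentage points between the cells of a cluster and all other cells was counted. By this count 10 of the 47 chaperone entries were higher, beside 39.9% of all entries of the table, and 9 were lower, beside 37.4%. All 9 lower entries were in cluster 4, and the 10 higher ones belonged to Pdia6, Pdia3 and Pdia4. By cluster, the higher chaperones were 2 of 4 entries in cluster 0 (beside 65.9% of all its entries), 1 of 3 in cluster 1 (58.8%), and 1 of 2 in cluster 5 (72.0%). They were 2 of 4 entries in cluster 6 (51.9%), 3 of 6 in cluster 7 (59.6%) and 1 of 4 in cluster 9 (76.8%). No chaperone was higher by that much in clusters 2, 3, 8 and 11, where 24.7%, 48.6%, 26.2% and 44.3% of all entries were. The chaperones were thus below the share of all entries in each of these 10 clusters, by little in cluster 6. Beside genes detected in at least 80% of all cells the order turned in clusters 6 and 7, where 33.8% and 21.7% of such entries were higher, with 2 of 4 chaperones in cluster 6 and, without the less detected Pdia4, 2 of 5 in cluster 7. A gene detected in over 90% of the other cells has no room to be 10 points higher, which was the case for the entries outside cluster 4 of Hspa5, Hsp90b1, Calr and Serpinh1.

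Hspa5 (chromosome 2, 34771970 to 34777547, plus strand, protein-coding) binds unfolded chains in the ER lumen and restrains the sensors of the unfolded protein response. It had entries in only 2 clusters. In cluster 4 it was detected in 55.3% of cells and in 96.4% of all others, the highest detection of any chaperone there and the smallest gap, -41.1 points. In cluster 9, where the mitotic markers Mki67 and Top2a were detected in 91.2% and 78.9% of cells, Hspa5 was detected in 98.8% of cells against 92.1% of the others. Over the 10 clusters without an entry its mean detection was 96.3%, so outside cluster 4 nearly all cells held its transcript.

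Hsp90b1 (chromosome 10, 86690209 to 86705509, minus strand), the ER Hsp90 that folds integrins and Toll-like receptors, had 8 entries. It was detected in 99.8% of cluster 9, 99.7% of cluster 1, 99.5% of cluster 0 and 99.3% of cluster 7, and in 98.4%, 98.0% and 97.6% of clusters 11, 2 and 8. These 7 values were close to each other, and each lay above all other cells by 6.1 to 9.1 points. In cluster 4 it was found in 42.5% of cells against 97.1%. Over the 4 clusters without an entry, which include cluster 10, its mean detection was 93.5%.

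Calr and Canx are the lectin chaperones, soluble and membrane-bound, that hold newly made glycoproteins. Calr (chromosome 8, 84841850 to 84846934, minus strand) was detected in 99.8% of cluster 6, 98.8% of cluster 7 and 96.7% of cluster 3, against 90.9%, 91.1% and 91.0% of the other cells. In cluster 4 it was detected in 42.9% of cells against 96.8%. Canx (chromosome 11, 50293961 to 50325673, minus strand) had its single entry there, at 26.5% against 91.1% of all other cells. The pair thus shared the low value in cluster 4, with Canx lower both there and elsewhere.

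Pdia3 (chromosome 2, 121413775 to 121438687, plus strand) is the disulfide isomerase that works with Calr and Canx on glycoproteins, and its 8 entries varied more widely than those of Hsp90b1. It was detected in 98.7% of cluster 1, 98.5% of cluster 0, 98.3% of cluster 7 and 98.0% of cluster 6. In these 4 clusters it was 10.7 to 12.4 points above all other cells. Detection was lower in cluster 2 and cluster 11, at 93.3% in both, and in cluster 8, at 90.8%. In cluster 4 it was 24.3% against 94.8%, a gap of -70.5 points that was the widest of the 9 genes.

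Pdia6 (chromosome 12, 17266545 to 17284770, plus strand), a disulfide isomerase found in complexes with Hspa5, split into the same high and low groups in the clusters that it shares with Pdia3. It was detected in 97.4% of cluster 0, 96.5% of cluster 6 and 95.7% of cluster 7, and in 89.9% of cluster 2 and 89.7% of cluster 11. Its highest values were 98.8% in cluster 5 and 98.5% in cluster 9, where Mki67 was detected in 78.6% and 91.2% of cells, 14.4 and 13.6 points above all other cells. The gap was also 13.6 points in cluster 0, and it was 11.7 in cluster 6 and 10.7 in cluster 7. In cluster 4 detection was 22.1% against 92.5%.

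P4hb (chromosome 11, 120560298 to 120573253, minus strand) is both a disulfide isomerase and the partner subunit of the prolyl hydroxylases that modify collagen. It was detected in 98.6% of cluster 2 against 89.0% of the other cells, in 95.0% of cluster 11 against 90.1%, and in 38.2% of cluster 4 against 95.7%. Cluster 2 was thus a cluster in which P4hb stood at its highest listed detection while Pdia3 and Pdia6 were near their lowest listed outside cluster 4. Pdia4 (chromosome 6, 47796141 to 47813430, minus strand), a larger member of the same enzyme family, was the least detected chaperone. It was found in 77.6% of cluster 7 against 67.4% of the other cells, and in 9.9% of cluster 4 against 74.3%.

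Serpinh1 (chromosome 7, 99345376 to 99353239, minus strand) binds the collagen triple helix in the ER, and its 11 entries were the most of any chaperone. It was detected in 99.9% of cluster 5, 99.8% of clusters 1 and 9, 99.7% of cluster 7, 99.6% of clusters 0 and 3 and 99.4% of cluster 6. In clusters 2 and 8, where the differentiation marker Serpina3n was detected in 91.3% and 90.2% of cells, Serpinh1 was detected in 97.7% and 96.5%, while cluster 6, at 99.4%, had Serpina3n in 89.7% of cells. In cluster 11, where the lipid droplet gene Plin1 was detected in 99.8% of cells against 14.4% of the others, it was detected in 89.7%. Serpinh1 in cluster 11 was the only chaperone entry outside cluster 4 that lay below all other cells, which stood at 91.5%.

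The one cluster without an entry of Serpinh1 was cluster 10, for which the detection could be solved by arithmetic. It came to 55.6%, or to 52.9% with cluster shares taken from all genes. The same arithmetic applied to the 10 genes listed in every cluster missed their deposited values in cluster 10 by up to 2.85 points with the first shares and up to 0.692 with the second. With the first shares all 10 solved values were too high, so the 55.6% may be too high as well. The first shares divided by their sum gave 53.3%. Serpinh1 was therefore detected in far fewer cells of cluster 10 than of any cluster but cluster 4, where it was 35.6% against 97.4%. Cluster 10 was low for nearly all listed genes, with 98.5% of its 713 entries at least 10 points lower than all other cells. Among its entries of genes detected in at least 80% of all cells the share was 97.1%. The low value is thus not particular to Serpinh1. For Hsp90b1, Calr and Pdia3 the other clusters without an entry leave only a rough lower limit for cluster 10. With the first shares it was 39.3%, 25.3% and 22.7%. Those shares ran too high for cluster 10, so the true limits may be lower.

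Cluster 4, with 9.59% of all cells, had fewer cells with a transcript for most genes. Of its 2068 entries, 92.8% were lower by at least 10 points, and so were 9 of 9 chaperones. The share was 89.3% among the 401 genes with an entry there that were detected in at least 80% of all cells. Among these 401 genes, the median detection inside cluster 4 was 39.1%, with quartiles of 23.4% and 67.1%. The 8 chaperones of this class had a median of 36.9%, which is within those quartiles. Within the set, Hspa5 kept the highest detection and Pdia4 the lowest, and the order differed from that over all cells only in that Calr stood above Hsp90b1, P4hb above Serpinh1, and Canx above Pdia3 and Pdia6. The adipocyte genes Fabp4 and Scd1 were detected in 98.5% and 97.7% of these cells, above the 71.0% and 61.7% of the others, and Plin1 in 29.3%. The part that depth or RNA per cell had in the low values was not tested.

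**Figure D2:**
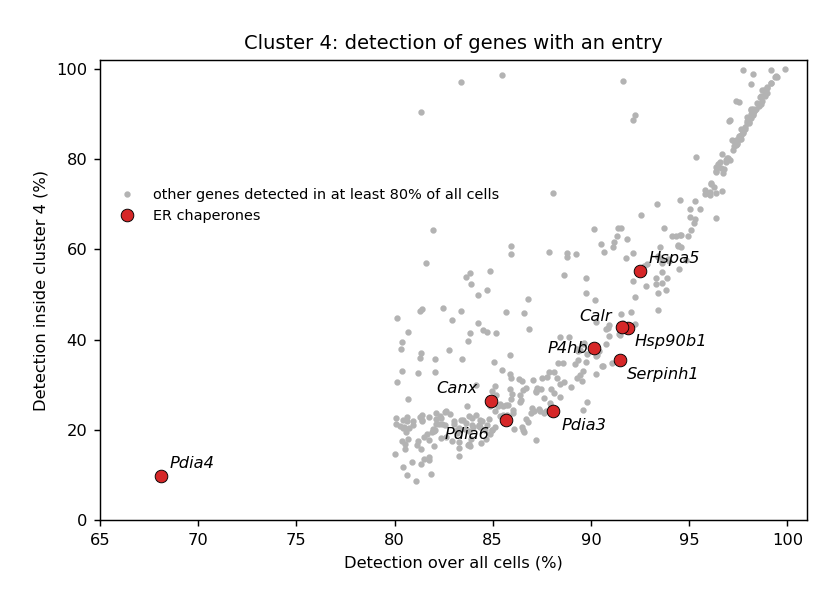
Detection inside cluster 4 (vertical axis, percent of its cells) against detection over all cells (horizontal axis, percent), each point a gene with an entry for cluster 4. The red chaperones, 55.3% for Hspa5 down to 9.9% for Pdia4, lie within the grey band of other genes detected in at least 80% of all cells, apart from Pdia4, which is below 80%.

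Because cluster 4 is part of "all other cells" in every other comparison, it lowers the value to which each other cluster is compared. The 38 chaperone entries outside cluster 4 were therefore also set against the other cells without cluster 4, a comparison chosen after the data had been seen. Against all other cells, 37 of the 38 were above and 1 below, a count for which the share over other genes was not taken. With cluster 4 left out, 29 were above and 9 below, beside 69.7% above and 30.3% below for entries of widely detected genes, those detected in at least 80% of all cells. The direction turned in 8 of the 38, beside 13.9% of those entries.

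The turned entries lay in 4 clusters. In cluster 11, Pdia3 was at 93.3% against 94.8%, Pdia6 at 89.7% against 92.5% and P4hb at 95.0% against 95.7%. In cluster 2, Pdia3 was at 93.3% against 95.0% and Pdia6 at 89.9% against 92.8%. In cluster 8, Pdia3 was at 90.8% against 95.1% and Serpinh1 at 96.5% against 97.4%. The last was Calr in cluster 3, at 96.7% against 96.8%, a gap of under 0.1 points. The disulfide isomerases Pdia3 and Pdia6 thus made up 5 of the 8. They also held many of the entries, 8 each of the 47 with cluster 4 counted.

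With cluster 4 left out, cluster 11 had 1 chaperone above the rest and 4 below, beside 71.5% above among widely detected genes of that cluster. The one above was Hsp90b1, at 98.4% against 97.1%. The largest gap was that of Serpinh1, at 89.7% against 97.5%, so that 10.3% of the cells of cluster 11 and 2.48% of the others had no transcript of it. With cluster 10 left out as well, the gap of Serpinh1 in cluster 11 was -9.48 points, with cluster 8 at -2.70 and cluster 2 at -1.53, and the other 7 clusters were above by 0.415 to 0.978. In cluster 8, 1 chaperone was above and 2 were below, beside 43.2% above among the widely detected genes, and in cluster 2, 3 were above and 2 below, beside 45.2%. Clusters 8 and 11 were thus below the share of all such genes, cluster 11 by more, and cluster 2 was above it. Each of these counts rests on few entries.

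In the other 7 clusters of this comparison, 24 of 25 entries were above, Calr in cluster 3 being the exception, and so were most genes. The share above among widely detected genes was 93.7%, 91.0%, 84.0% and 96.3% in clusters 0, 1, 3 and 5, and 85.1%, 87.4% and 94.0% in clusters 6, 7 and 9. Cluster 7 held the most chaperones outside cluster 4, with 6, and all 6 were above, by 2.19 points for Calr up to 3.76 for Pdia3. Their median was 3.0 points, beside 1.52 for all widely detected genes in that cluster. The 6 include Pdia4, at 3.59 points, which is not widely detected, and the median is lower without it. In cluster 6 the 4 chaperones had a median of 3.39 points, beside 2.24. In the other 5 of these clusters the chaperone median was below that of all such genes. It was 3.61 beside 5.17 in cluster 0, 3.07 beside 3.97 in cluster 1 and 1.21 beside 2.49 in cluster 3. In clusters 5 and 9 it was 4.91 beside 5.64 and 2.73 beside 5.44.

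**Figure D3:**
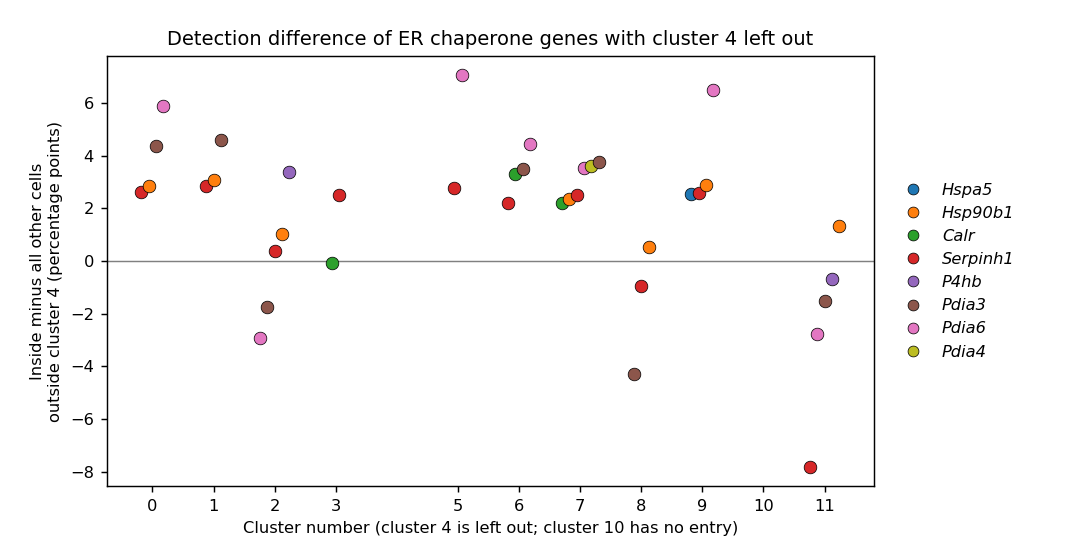
Detection inside a cluster minus detection in all other cells outside cluster 4 (vertical axis, percentage points) for the 38 chaperone entries, by cluster number (horizontal axis) and coloured by gene. Of these, 29 lie above 0 and 9 below, with Serpinh1 in cluster 11 the lowest at -7.82 and Pdia6 in cluster 5 the highest at 7.04.

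The genes around the chaperones were counted from lists of related functions, of which the chaperones were no part. In cluster 11 the collagen-modifying enzymes, which hydroxylate and glycosylate collagen chains, had 11 entries, 0 higher and 7 lower by at least 10 points, beside 44.3% higher and 28.7% lower over all entries of that cluster. Their median was -13.5 points, beside 6.6 over all entries of the cluster. The lowest was P3h3, a member of the collagen prolyl hydroxylase family, at 30.2% against 60.8%, and the highest was Plod1, a lysyl hydroxylase, at 63.7% against 56.7%. The prolyl isomerases of the ER had 4 of 7 entries lower, led by Fkbp10, a collagen co-chaperone, at 9.2% against 53.9%. The CREC family of calcium-binding proteins had 3 of 5 lower, led by Rcn3 at 27.9% against 82.2%, and 1 higher, Sdf4 at 81.3% against 70.4%. The collagens themselves were split, 3 of 9 higher and 3 lower, from Col15a1 at 92.1% against 37.8% to Col5a1 at 57.9% against 83.0%.

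Of the other folding lists in cluster 11, only the chaperones of the cytosol and mitochondria exceeded the 44.3% of all entries that were higher. They had 7 of 10 entries higher and 0 lower, with Trap1, a mitochondrial Hsp90, at 82.4% against 30.7%. The translocon, signal peptidase and oligosaccharyltransferase genes, which bring chains into the ER and add sugars, had 6 of 16 higher and 0 lower, with Rpn1 highest at 85.1% against 71.8%. Of the ER co-chaperones 2 of 6 were higher, with Dnajb9, a J-protein that acts with Hspa5, at 81.3% against 35.6%. Of the unfolded protein response genes 2 of 6 were higher and 1 was lower, from Derl1, a protein of ER-associated degradation, at 96.8% against 67.4% to Creb3l1, a transcription factor of collagen-making cells, at 3.8% against 40.9%. The second of the higher ones was Xbp1, a transcription factor of the response, at 88.1% against 60.6%, named after its value had been seen. Among the other disulfide enzymes 1 of 7 was higher and 2 were lower, from the oxidase Ero1l at 87.9% against 68.4% to Pdia5 at 11.9% against 40.9%. For glycoprotein quality control 1 of 6 was higher, Erlec1 at 79.0% against 68.2%.

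**Figure D4:**
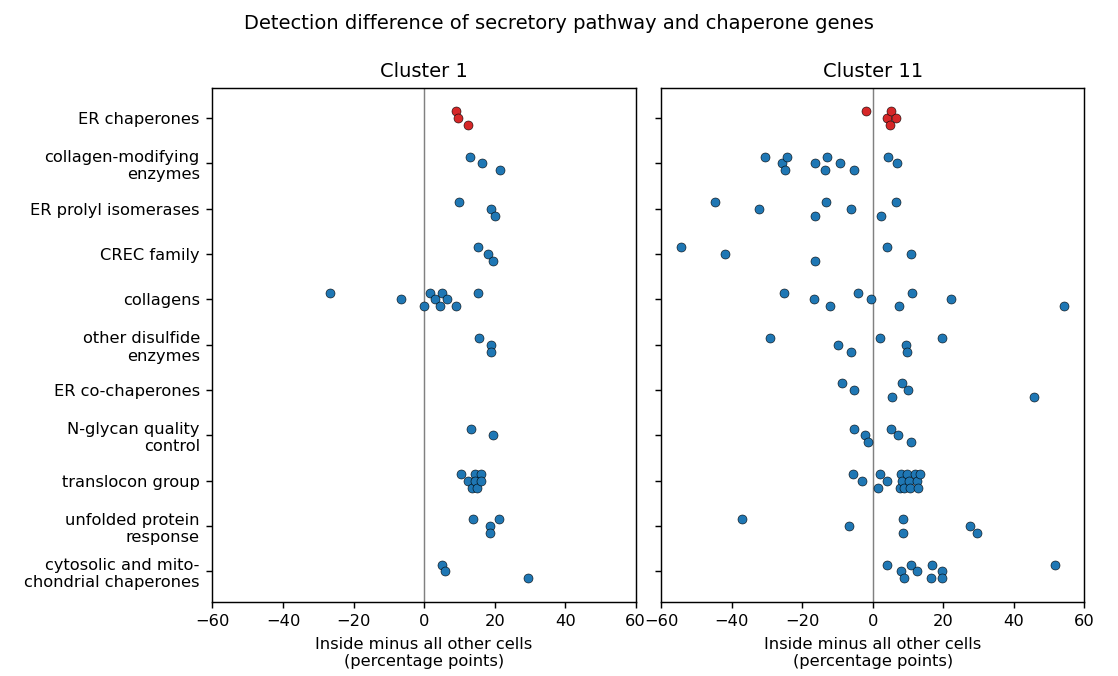
Detection inside the cluster minus detection in all other cells (horizontal axis, percentage points) for each entry of the chaperones (red) and of the related lists (blue, vertical axis), in cluster 1 (left) and cluster 11 (right). In cluster 1 the points lie to the right of 0 apart from some collagens, and in cluster 11 the collagen-modifying enzymes have 7 of 11 entries at least 10 points lower while the cytosolic and mitochondrial chaperones have 7 of 10 at least 10 points higher.

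In cluster 1, where the preadipocyte marker Mmp3 was detected in 87.7% of cells against 42.6%, most lists of secretory genes were on the high side. All 8 translocon entries, 4 of 4 of the unfolded protein response, 3 of 3 collagen-modifying enzymes, 3 of 3 other disulfide enzymes, 3 of 3 of the CREC family and 2 of 2 of glycoprotein quality control were at least 10 points higher, beside 58.8% of all entries of the cluster. Of the chaperones 1 of 3 was, Pdia3 at 98.7% against 86.3%, since Hsp90b1 and Serpinh1 were above 90% in the other cells. Examples are Plod2, a lysyl hydroxylase, at 85.5% against 64.1%, Rcn3 at 98.1% against 78.6% and Herpud1, a protein of ER-associated degradation, at 60.1% against 39.0%. The prolyl isomerases had 2 of 3 higher, and the collagens only 1 of 10, with 1 lower. Cluster 0 was alike, beside 65.9% of all its entries. There 4 of 4 translocon entries and 2 of 2 each of the CREC family, the unfolded protein response and the prolyl isomerases were higher. Of its collagens 0 of 8 were higher and 2 were lower.

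In cluster 8 the unfolded protein response genes had 3 of 3 entries lower, beside 45.6% of all entries there, from Herpud1 at 20.8% against 43.3% to Asns, an amino acid synthesis enzyme induced by stress, at 36.5% against 62.9%. Dnajb11, a J-protein partner of Hspa5, was at 49.0% against 60.6%, and of the other disulfide enzymes 1 of 3 was higher and 2 were lower, from Qsox1, a secreted sulfhydryl oxidase, at 67.5% against 48.0% to Pdia5 at 22.8% against 41.6%. Among its listed entries outside cluster 4, the chaperone Pdia3 was at its lowest there, whereas Plod1 was higher, at 75.5% against 55.7%. In cluster 6, where Mki67 was detected in 92.0% of cells, 3 of 8 translocon entries were higher, beside 51.9% of all entries, led by Ssr1 at 96.0% against 74.2%. Pdia3 and Pdia6 were higher in the same cells, by 10.7 and 11.7 points, and the disulfide enzyme Tmx1 was at 73.4% against 41.2%. Of the unfolded protein response genes in cluster 6, 1 of 8 was higher and 3 were lower, beside 14.9% of all entries lower, with Trib3, a target of its stress branch, at 9.7% against 29.8%.

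In cluster 4, every entry of the 9 related lists other than the collagens was at least 10 points lower, as 92.8% of all its entries were. The widest gap of the translocon group was that of Ostc, at 13.6% against 88.7%, and the widest of the CREC family that of Rcn3, at 12.4% against 88.7%. The cytosolic and mitochondrial chaperones had a median detection of 22.4% inside cluster 4, below the 35.6% of the ER chaperones. Their median gaps to all other cells were close, at -64.5 and -61.8 points. Hsp90ab1 was detected in 78.0% of these cells against 98.6%. Among the collagens 7 of 8 were lower, and Col3a1 was at 94.0% against 99.1%.

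The genes whose detection inside the clusters ran closest to that of a chaperone were found for the 4 chaperones with entries in at least 6 clusters. Likeness was the mean absolute difference in detection over the shared clusters, with the same cells behind both values. Hsp90b1 was nearest to Rpl36a (0.85 points over 6 clusters) and Fth1 (1.1 over 7), and Serpinh1 to Eif5a (0.867 over 6), Rpl36a (0.963 over 8) and Rps21 (1.03 over 7). Both were thus nearest to genes of ribosomes and other abundant transcripts. Outside cluster 4, Hsp90b1 was listed at 97.6% to 99.8% and Serpinh1 at 89.7% to 99.9%. Likeness compares levels, so other genes near 100% come out close to them, and this need not reflect a shared pattern. Pdia3 was nearest to Krtcap2 (0.933 over 6), a subunit of the oligosaccharyltransferase, then Lamp1 (1.39 over 7) and Clta (1.63 over 6). Pdia6 was nearest to the integrin gene Itgb1 (1.09 over 7), Selenof (1.36 over 7), an ER selenoprotein, and Edf1 (1.37 over 6).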

How the data were processed

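Per the study's methods and the submitters' processing notes, the authors mapped the reads to mm10 with Cell Ranger 6.0.0, aggregated the 8 captures after equalizing their depth, filtered cells on genes and mitochondrial reads, removed immune, glial and endothelial cells, clustered the rest in Seurat and compared each cluster with all remaining cells (MAST). Removal of doublets is not given in the sources used here, and doublets were not looked for, since the table holds no single cells. The deposited values used were the detection fractions inside a cluster and in all other cells, rounded by the authors to 3 decimals, printed as percents. The authors' log2 fold changes, p-values and adjusted p-values of the same comparison were not used. The table pools all samples, and the number of columns per sample left unused is 0.

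The shares of the 12 clusters were solved by least squares over the 10 genes listed in every cluster, since detection over all cells must be equal from each cluster, and were tested on simulated data. Detection over all cells, over clusters without an entry and over other cells without cluster 4 followed by arithmetic. No test was run, as no value has a replicate. A total of 35 entries whose symbols had turned into dates were left out, which left 13302.

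The members and lists were chosen with earlier results of these data known. Lists covered ER co-chaperones, other disulfide enzymes, prolyl isomerases, collagen-modifying enzymes, the CREC family, glycoprotein quality control, the translocon group, the unfolded protein response, cytosolic and mitochondrial chaperones, collagens, and markers of preadipocytes, proliferation, differentiation, adipocytes and thermogenic cells. The immune, endothelial and glial marker lists had 0 entries. Thermogenic Ppargc1a, Elovl3 and Cox7a1 were listed in cluster 11, at 47.5%, 36.7% and 72.3%, while Ucp1 and Cidea of the same list had no entry in any cluster. Named genes were the members, the highest and lowest of each list in clusters 1, 4, 6, 8 and 11, markers, and the 3 nearest genes, of which 1 is not reported here. Gene positions are from GENCODE M21 (GRCm38, the assembly of mm10) and promoters from RefSeq. Tables were handled in Python 3.11.15 with pandas 2.3.3, numpy 2.4.6 and scipy 1.17.1, and plots were drawn with matplotlib 3.10.9. Alternatives covered the size of a counted difference, an odds ratio, the clusters included, the background and the shares.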

Additional observations from a re-analysis of the deposited data

How the results depend on the processing

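The count of chaperone entries called higher depended on the size required: 10 at 10 points, 33 at 5 points, 0 at 20 points and 32 by an odds ratio of at least 2. The lower count of 9 was 0 without clusters 4 and 10, as all 9 are in cluster 4. For the related lists the higher count of 133 was 203 at 5 points and 38 at 20 points, and the lower count of 155 was 50 without clusters 4 and 10. The share of all entries was not counted at 5 or 20 points, by the odds ratio or without clusters 4 and 10. These counts therefore show only how the number moves with the setting. Leaving cluster 4 out of the other cells, an alternative added after the data had been seen, moved the chaperone entries below the others from 1 to 9. Serpinh1 in cluster 10 was 55.6%, or 52.9% with shares from all genes and 53.3% with shares divided by their sum. Restricted to genes detected in at least 80% of all cells, the background was 25.6% higher in place of 39.9% and 21.0% lower in place of 37.4%. Under the other alternatives run, no cluster share moved by more than 0.0583 points, no chaperone's detection over all cells by more than 0.0623, and no mean over clusters without an entry, other than that of Serpinh1, by more than 0.268. No paired analysis was possible because all samples were pooled in the deposited values and no replicate remains. For the same reason no replicate could be left out. The depth and number of cells are unknown, so differences of a few points carry no error here.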
